A study of Saccharomyces cerevisiae with 16 samples.

Results

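The general stress response genes of budding yeast described here are 32 genes chosen by name, stress-induced genes other than the chaperone, trehalose and glycogen genes, of 7126 genes in the files, 6685 of them nuclear open reading frames (ORFs). Messenger RNA of Saccharomyces cerevisiae was sequenced from hda1-/- cells (strain YTK113), which lack the catalytic subunit of the histone deacetylase complex Hda1C, and from wild-type cells (strain YSB787). Both strains were grown in synthetic complete medium with raffinose (Ra-0), moved to galactose for 15, 30 and 120 min (Gal-15, Gal-30 and Gal-120, the first pulse), to glucose for 30 and 120 min (Glu-30 and Glu-120), and again to galactose for 15 and 30 min (Gal-15-1 and Gal-30-1, the second pulse). The labels write the second pulse only as an added 1, which was read in this way from the order of the growth steps. There were 16 libraries, 1 for each genotype at each of 8 stages. No replicate check of any difference was therefore possible, and since hda1-/- is 1 strain, its deletion and anything else that sets this strain apart cannot be told apart.

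The general stress response is the shared part of what yeast cells do when conditions turn poor. The related zinc finger activators Msn2 and Msn4 enter the nucleus and bind the stress response element (STRE, the letters AGGGG) before genes for antioxidants, membrane and cell wall proteins and reserve metabolism. Protein kinase A (PKA) and the TOR pathway, active on abundant glucose, keep both activators out of the nucleus, so these genes are low in rapidly growing cells and high on poorer carbon sources and as glucose runs out.

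Levels are given as FPKM, the fragments of a gene scaled to its length in kilobases and to the depth of its library. Fold differences are ratios of FPKM plus 1, which understates differences of low genes, and a gene was called higher or lower at 1.7-fold or more between genotypes and at 2-fold or more between stages. Ranges after a fold are 95% exact binomial intervals of the fragment counts and cover counting error only. The counts take the aligned bases of a pair of reads as 1 fragment, but whether reads were paired is not given in the sources used here; with single reads the counts would be larger and the intervals narrower. As RNA was taken from whole cultures, a change in the number of expressing cells and in RNA per cell cannot be told apart. A library held 9374070 to 13846261 aligned fragments. HDA1 itself was at 0 to 0.162 FPKM in hda1-/- libraries, against 27.0 to 38.8 FPKM in wild-type libraries. The MATa mating type marker MFA1 was at 265 to 772 FPKM in hda1-/- and 337 to 620 FPKM in wild type. The MATalpha marker STE3 was at 0.263 to 0.751 FPKM in hda1-/- and 1.09 to 2.48 FPKM in wild type. The MATalpha markers MF(ALPHA)1 and MF(ALPHA)2 ranged higher in hda1-/-, at 0.873 to 9.94 and 0.795 to 2.38 FPKM. In wild type they were at 0.527 to 2.61 and 0.406 to 1.15 FPKM. RNA genes took 9.88 to 15.7% of gene bases in hda1-/- and 8.88 to 14% in wild type. The highest hda1-/- value, 15.7% against 10.2% in wild type, was at Gal-120, and its part in the differences at that stage was not tested.

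Of the 32 genes, 31 passed a minimum mean of 1 FPKM over the 16 libraries, and 28 of these were never listed under 3 fragments. DDR48, a stress protein gene (YMR173W, chromosome XIII, 608689 to 609981), was listed at 0 in every library. It overlaps YMR173W-A on the same strand by 1085 bases, and that ORF was listed at 325 to 736 FPKM in hda1-/- and 390 to 892 FPKM in wild type, so reads of the pair cannot be told apart. SIP18, for a hydrophilin, was listed at 0 in 4 libraries, the repressor gene XBP1 in 9 and MOH1 in 15, and such a 0 can be a failed estimate. MOH1 passed the minimum only through its value in hda1-/- at Gal-120, so its calls in comparisons with that library were fixed by the minimum. Counts are therefore given over the 31 genes and again over the 28.

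During the first galactose pulse, 15 of the 28 steadily measured genes were higher in hda1-/- at all 3 stages and 19 at 1 stage or more, against 4.86% and 12.6% of 5881 tested ORFs. The 15 are HSP12, DDR2, GRE1, CTT1, ALD3, GAD1, DCS2, SPI1, RTN2, OM45, MSC1, TFS1, PAI3, USV1 and SDP1. In raffinose, 5 of the 31 genes were higher in hda1-/- (4 of the 28: HSP12, SPI1, USV1 and SDP1), where 4.90% of all ORFs were higher. The count was 16 at Gal-15 (background 7.84%), 21 at Gal-30 (9.35%) and 20 at Gal-120 (8.06%), or 15, 19 and 18 of the 28. The 20 at Gal-120 include MOH1, whose call was fixed by the minimum. Lower calls numbered 0 in raffinose, at Gal-15 and at Gal-30, where 1.11%, 1.7% and 2.41% of ORFs were lower, and 1 at Gal-120 (XBP1, background 9.79%). The median log2 ratio of the 31 genes was 0.17 in raffinose, 0.90 at Gal-15, 1.01 at Gal-30 and 1.02 at Gal-120. The medians of all tested ORFs at these stages were 0.006, 0.09, 0.09 and −0.14.

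**Figure D1:**
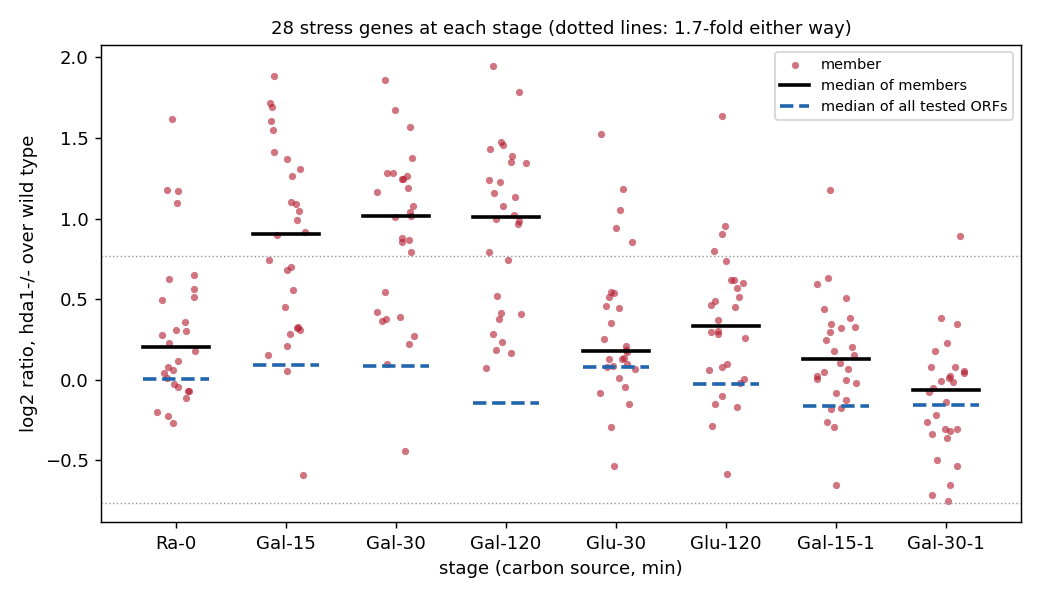
Log2 ratio of FPKM plus 1, hda1-/- over wild type (vertical axis), of the 28 steadily measured stress genes at the 8 stages (horizontal axis), with 1 point per gene, the median of the members as a solid bar and the median of all tested ORFs as a dashed bar. At Gal-30 the members' median is 1.01 and that of all ORFs 0.09, and at Gal-30-1 the 2 medians are −0.06 and −0.16.

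Fewer genes were called in glucose, and in the second pulse at most 2 were higher. At Glu-30, 6 of the 31 genes were higher in hda1-/- and 0 lower (background 5.95% and 1.39%), and at Glu-120 4 were higher and 1 lower (5.02% and 1.26%). In the second pulse 1 gene was higher and 1 lower at Gal-15-1 (3.52% and 5.92%), and 2 were higher and 1 lower at Gal-30-1 (3.32% and 4.69%). The lower calls were of XBP1 up to Gal-15-1 and of SIP18 at Gal-30-1, so among the 28 genes none was called lower at any stage. SIP18, left out of the 28 for its values of 0 elsewhere, was well counted at Gal-30-1. It had 963 fragments in hda1-/- and 1796 in wild type, 0.497-fold (0.459 to 0.538). The 28 genes' medians over these 4 stages were 0.18, 0.33, 0.13 and −0.06, against 0.08, −0.03, −0.16 and −0.16 for all ORFs. USV1 was the only one of the 28 higher at both glucose stages, as were 2.81% of all ORFs. GRE1 and GTT1 were the only ones higher at any stage of the second pulse, as were 4.97% of all ORFs.

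**Figure D2:**
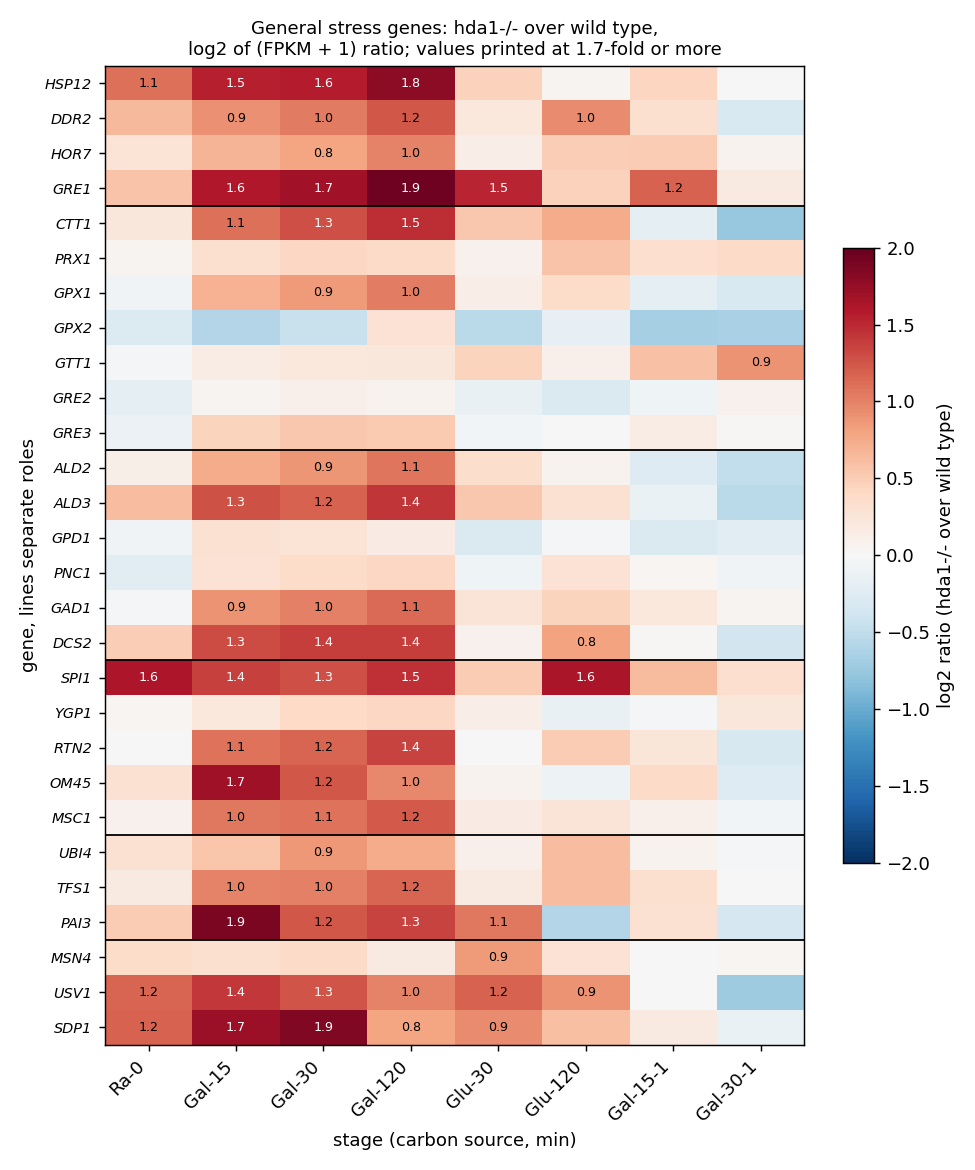
Log2 ratio of FPKM plus 1, hda1-/- over wild type, for the 28 steadily measured stress genes (rows, grouped by role) at the 8 stages (columns), from blue for lower to red for higher, with the value printed where it reaches 1.7-fold. The printed values crowd the 3 columns of the first pulse, where 15, 19 and 18 genes are called, and 1 is printed in each column of the second pulse.

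Promoter sequence before the start codon was read from RefSeq's R64 genome, whose coordinates the files share, over the 300 bases that end 200 bases before the start codon, which leaves out most of the transcript's leader. An STRE on either strand, AGGGG or CCCCT, lies in this window in 19 of 32 genes (59.4%), and in 22.2% of the windows of 6680 ORFs. At least 2 lie in 14 genes (43.8%), against 3.77% of all windows. The overlapping windows of PAI3 and SIP18, neighbours that are read in opposite directions, hold the same matches. The Yap1 site TTACTAA, bound by the oxidative stress activator Yap1, was found in 2 genes (6.25%) and 6.35% of windows, and the Mig1 core CCCCGC, for a glucose repressor, in 0 genes and 3.95% of windows. YGP1 was the only gene with both an STRE and a Yap1 site, which do not overlap. Over the whole 500 bases, 28 of the 32 genes (87.5%) have an STRE, and 33.7% of ORFs, while 7 (21.9%) have the Yap1 site, and 11.3% of ORFs. HSP12 (chrVI:106756-107055), CTT1 (chrVII:654134-654433) and SPI1 (chrV:467870-468169) are shown as genes with several STREs that were higher in hda1-/- through the first pulse. All 3 are on the plus strand, are written 5′ to 3′, and have STRE letters in capitals.
HSP12: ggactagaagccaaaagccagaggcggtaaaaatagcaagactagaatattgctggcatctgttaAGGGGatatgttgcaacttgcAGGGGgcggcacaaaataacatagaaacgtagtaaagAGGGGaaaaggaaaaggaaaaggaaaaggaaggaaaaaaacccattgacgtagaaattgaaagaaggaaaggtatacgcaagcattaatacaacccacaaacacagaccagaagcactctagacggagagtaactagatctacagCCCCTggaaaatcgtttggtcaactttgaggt
CTT1: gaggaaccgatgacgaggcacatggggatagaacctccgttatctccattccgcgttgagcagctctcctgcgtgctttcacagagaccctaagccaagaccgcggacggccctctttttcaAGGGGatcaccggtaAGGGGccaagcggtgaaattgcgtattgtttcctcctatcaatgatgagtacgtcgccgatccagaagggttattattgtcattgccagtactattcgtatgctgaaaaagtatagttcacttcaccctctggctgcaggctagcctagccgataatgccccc
SPI1: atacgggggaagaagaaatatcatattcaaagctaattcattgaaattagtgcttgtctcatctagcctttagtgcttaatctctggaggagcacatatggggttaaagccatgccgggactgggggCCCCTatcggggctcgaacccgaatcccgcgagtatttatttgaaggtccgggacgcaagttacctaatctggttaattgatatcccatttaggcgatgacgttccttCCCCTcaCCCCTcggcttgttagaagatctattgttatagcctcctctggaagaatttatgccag
The HSP12 window, which overlaps the ORF YFL015C, has STREs beginning 435, 414, 377 and 232 bases before the start codon, the CTT1 window 378 and 363 bases, and the SPI1 window 373, 265 and 258 bases before. Of the 15 genes called throughout the first pulse, 8 have an STRE in the 300-base window, and GRE1, GAD1, DCS2, RTN2, MSC1, TFS1 and SDP1 have none there. Of the other 13 steadily measured genes, 7 have one. In the whole 500 bases, GRE1 is the only one of the 15 with none, and 10 of the other 13 have one.

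Among the small stress proteins and hydrophilins, 4 of the 6 genes were steadily measured. Of these, 1, 3, 4 and 4 were higher in hda1-/- at Ra-0, Gal-15, Gal-30 and Gal-120 (background 4.90%, 7.84%, 9.35% and 8.06%). HSP12, for a small protein that stabilises membranes, stood in stage order at 288, 1154, 2044, 5825, 4952, 363, 6849.6 and 14763 FPKM in hda1-/-, and at 134, 394, 689, 1692, 3605, 348, 5058 and 14848 FPKM in wild type. The hda1-/- value was already 2.14-fold (1.92 to 2.38) that of wild type in raffinose and 2.97-fold (2.85 to 3.09) at Gal-30, and the genotypes met at Glu-120 and at Gal-30-1, where the ratios were 1.04-fold (0.967 to 1.12) and 0.994-fold (0.982 to 1.01). DDR2, a gene induced by many stresses, was at 227, 648, 1050.0, 1799, 348, 165, 2388 and 2833 FPKM in hda1-/- and 145, 343, 510.0, 761, 301, 84.8, 1903 and 3506 FPKM in wild type. It was higher in hda1-/- in the first pulse, by 2.36-fold (2.23 to 2.50) at Gal-120, and again at Glu-120, by 1.93-fold (1.62 to 2.31). GRE1, for a hydrophilin, a very hydrophilic protein made under water loss, was much lower in level, at 6.05, 20.9, 46.4, 201.6, 109.5, 6.74, 44.8 and 117 FPKM in hda1-/- and 3.76, 6.20, 13.9, 51.6, 37.4, 4.62, 19.2 and 104 FPKM in wild type. Its ratio of 3.85-fold (3.41 to 4.35) at Gal-120 was the largest of the 28 genes at that stage, and it remained called at Glu-30 (2.88-fold) and Gal-15-1 (2.27-fold). HOR7, a gene induced by osmotic stress, was higher at Gal-30 and Gal-120 only, by 1.73-fold and 1.98-fold. SIP18, also for a hydrophilin, was listed at 0, 19.6, 61.5, 158, 61.7, 0, 124 and 397 FPKM in hda1-/- and 0, 0, 35.7, 71.5, 35.1, 0, 114 and 798 FPKM in wild type.

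**Figure D3:**
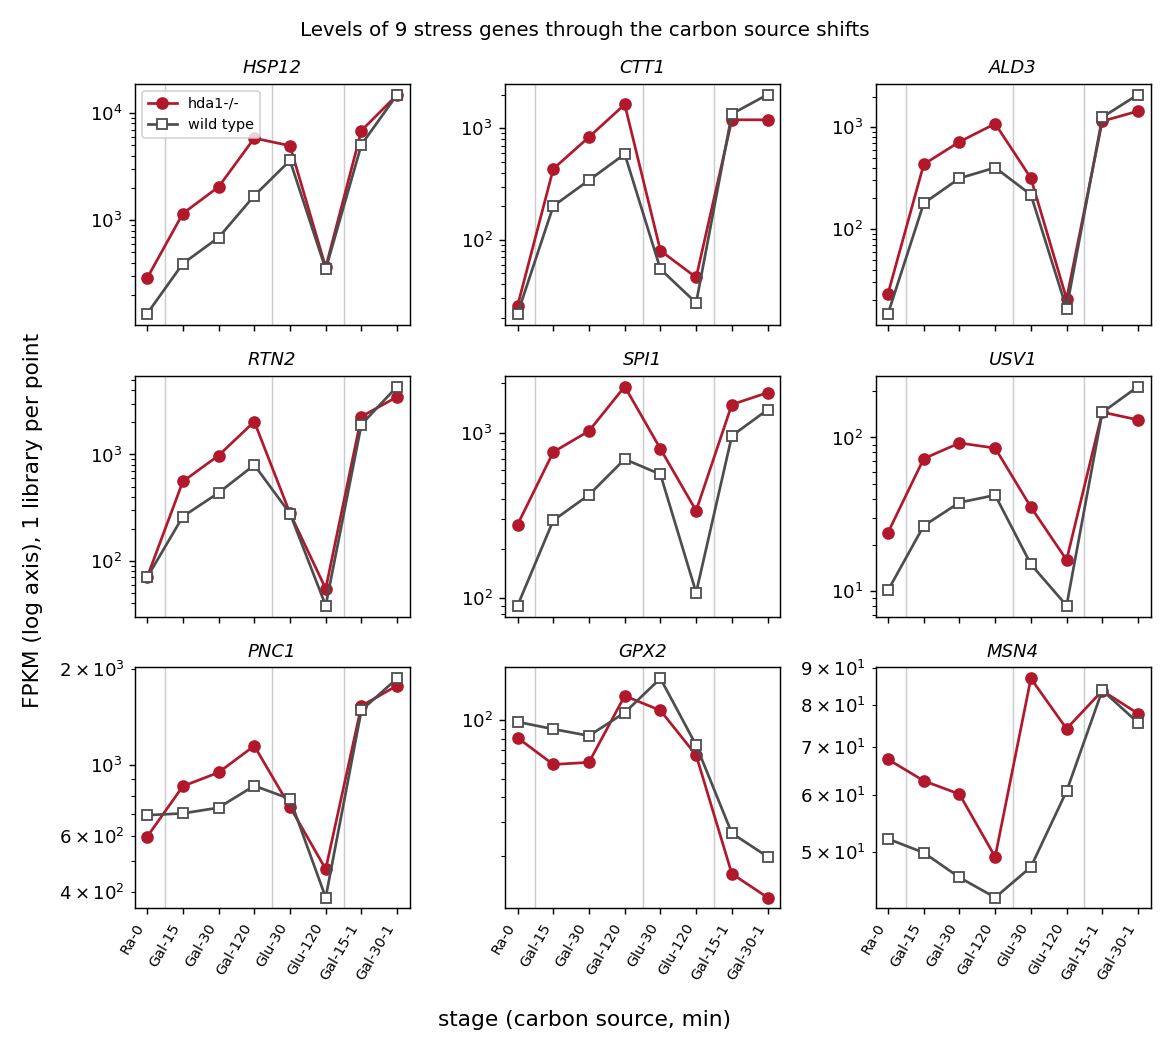
FPKM on a log axis of 9 stress genes at the 8 stages, with filled circles for hda1-/- and open squares for wild type, 1 library per point. HSP12, CTT1, ALD3, RTN2, SPI1 and USV1 run above wild type in hda1-/- through the first pulse. At Gal-30-1 HSP12 stands at 14763 and 14848 FPKM, CTT1, ALD3, RTN2 and USV1 lie below wild type, and SPI1 lies above.

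Of the 7 antioxidant and redox enzyme genes, 0, 1, 2 and 2 were higher in hda1-/- at Ra-0, Gal-15, Gal-30 and Gal-120. The background shares at these stages were 4.90%, 7.84%, 9.35% and 8.06% of all ORFs. At no stage of the first pulse were 5 of the 7 called. CTT1, for the cytosolic catalase that breaks down hydrogen peroxide, was at 25.7, 433, 836, 1639, 80.1, 46.1, 1193 and 1193 FPKM in hda1-/- and 21.8, 201.2, 343, 588, 54.7, 27.2, 1347 and 2008 FPKM in wild type. The hda1-/- library was above wild type at every stage up to Glu-120, with ratios of 2.15-fold (2.07 to 2.23) at Gal-15 and 2.43-fold (2.37 to 2.50) at Gal-30. It was below in the second pulse, at 0.886-fold (0.87 to 0.902) and 0.594-fold (0.584 to 0.605), the last just short of a lower call. GPX1, for a glutathione peroxidase, was higher at Gal-30 by 1.80-fold (1.56 to 2.09) and at Gal-120 by 2.03-fold (1.79 to 2.31). GPX2, for a second glutathione peroxidase and known as a target of Yap1, lay lower in hda1-/-. It was at 80.8, 59, 60.5, 132, 111, 65.8, 16.3 and 12.3 FPKM in hda1-/- and 97.4, 89.4, 82.7, 109, 162, 74, 26.3 and 19.9 FPKM in wild type, below wild type at every stage but Gal-120 and past the fold at none. PRX1, for the mitochondrial peroxiredoxin, and GRE3, for an aldose reductase, had ratios of 1.34-fold and 1.46-fold at Gal-30. GRE2, for a methylglyoxal reductase, lay between 0.819-fold and 1.07-fold at all 8 stages, and it overlaps YOL150C on the opposite strand by 250 bases. GTT1, for a glutathione transferase, was called only at Gal-30-1, with 280.4 FPKM in hda1-/- and 151 FPKM in wild type, 1.86-fold (1.72 to 2.0).

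Metabolic enzyme genes of the response were higher in 3, 4 and 4 of 6 at the 3 stages of the first pulse (background 7.84%, 9.35% and 8.06%). ALD3, for a cytosolic aldehyde dehydrogenase, was at 23.3, 432, 719, 1082, 317, 20.7, 1145 and 1439 FPKM in hda1-/- and 14.8, 179, 315, 401, 218, 16.6, 1252 and 2090.1 FPKM in wild type. The ratio was 2.40-fold (2.31 to 2.50) at Gal-15 and 2.69-fold (2.62 to 2.76) at Gal-120, and 0.689-fold (0.677 to 0.701) at Gal-30-1. Its tandem neighbour and close relative ALD2 (both on chromosome XIII, 599352 to 600872 and 601562 to 603082) could share reads with it. ALD2 reached 166 FPKM in hda1-/- and 78.2 FPKM in wild type at Gal-120, 2.11-fold (1.98 to 2.24). GAD1, for glutamate decarboxylase, was at 85.1, 226, 292, 388, 176, 76.2, 521 and 723 FPKM in hda1-/- and 86.6, 121, 144, 177, 148, 55.4, 453 and 696 FPKM in wild type. It did not differ in raffinose beyond counting error (0.983-fold, 0.92 to 1.05) and was at 2.19-fold (2.11 to 2.28) at Gal-120. DCS2, a stress-induced modulator of cap scavenging in RNA decay, was at 32.7, 142, 185, 209, 59.7, 26.5, 372 and 434 FPKM in hda1-/- and 22.9, 56.6, 70.6, 79.2, 56.4, 14.8, 367 and 558 FPKM in wild type. Its ratio was between 2.48-fold and 2.62-fold through the first pulse, and it was called again at Glu-120 (1.74-fold). GPD1, for the glycerol 3-phosphate dehydrogenase of osmotic adaptation, and PNC1, for nicotinamidase, were called at no stage. Their ratios at Gal-120 were 1.12-fold (1.08 to 1.16) and 1.33-fold (1.29 to 1.38), and GPD1 overlaps YDL023C on the opposite strand by 257 bases.

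Cell wall, membrane and organelle genes were higher in 1 of 5 steadily measured genes in raffinose (background 4.90%). In the first pulse 4 of the 5 were higher at each stage (7.84%, 9.35% and 8.06%). SPI1, for a cell wall protein anchored by a lipid, was at 279, 768, 1029.7, 1913, 802, 339, 1488 and 1755 FPKM in hda1-/- and 90.4, 296, 423, 695, 563, 108, 961 and 1384 FPKM in wild type. The ratio was largest on sugars where the gene was lowest, 3.07-fold (2.76 to 3.42) in raffinose and 3.11-fold (2.84 to 3.42) at Glu-120, and SPI1 was above wild type in all 8 pairs of libraries. RTN2, for a reticulon that shapes the endoplasmic reticulum, was at 70.3, 558, 977, 2034, 280.3, 54.8, 2269 and 3477 FPKM in hda1-/- and 70, 261, 436, 797, 279, 38.1, 1910.5 and 4346 FPKM in wild type. The genotypes were level in raffinose (1.01-fold, 0.92 to 1.10) and at Glu-30 (1.01-fold, 0.964 to 1.05) and apart between them, by 2.55-fold (2.50 to 2.61) at Gal-120. OM45, for a mitochondrial outer membrane protein, was at 26, 118, 142, 199.5, 57.4, 16.7, 350.5 and 396 FPKM in hda1-/- and 20.9, 35.9, 59.3, 102, 54.8, 18, 268 and 476 FPKM in wild type. Its ratio was largest at the first galactose stage, 3.24-fold (2.95 to 3.56), and 1.96-fold (1.84 to 2.08) at Gal-120. MSC1, named for a meiotic recombination phenotype, was at 101.2, 464, 671, 1126, 662, 84.3, 1760.2 and 2821 FPKM in hda1-/- and 95.7, 224, 317, 480.0, 588, 70.2, 1636 and 2924 FPKM in wild type. It lay at 2.07-fold, 2.12-fold and 2.34-fold through the first pulse. YGP1, for a secreted glycoprotein, was at 886 to 1554 FPKM in hda1-/- and 860.0 to 1381 FPKM in wild type and was called nowhere. MOH1 was listed at 19.5 FPKM in hda1-/- at Gal-120 and at 0 elsewhere.

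All 3 proteolysis genes were higher in hda1-/- at Gal-30 (background 9.35%). TFS1, for an inhibitor of carboxypeptidase Y, was at 98.8, 221, 288, 419, 258, 79.5, 784 and 1206 FPKM in hda1-/- and 87.4, 111, 142, 187, 227, 51.5, 627 and 1198 FPKM in wild type, with a ratio of 2.23-fold (2.10 to 2.37) at Gal-120. PAI3, for an inhibitor of proteinase A, was at 15.9, 58.5, 95.4, 227, 95.2, 6.14, 215 and 583 FPKM in hda1-/- and 10.9, 15.1, 39.6, 88.6, 45.4, 9.74, 175 and 735 FPKM in wild type. It was higher in hda1-/- from Gal-15 (3.69-fold, 2.64 to 5.22) to Glu-30 (2.07-fold, 1.67 to 2.58), and at Glu-120 the interval of its ratio held 1 (0.665-fold, 0.36 to 1.22). UBI4, the polyubiquitin gene, passed the fold at Gal-30 alone, by 1.83-fold (1.75 to 1.90). Its repeats are shared with other ubiquitin genes, so its reads may be split among them.

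Of the 3 steadily measured regulator genes, 2 were higher in hda1-/- at each of the first 4 stages (background 4.90%, 7.84%, 9.35% and 8.06%). At Glu-30 3 were higher and at Glu-120 1 (5.95% and 5.02%). MSN4, for the activator itself, was at 67.2, 62.7, 60.1, 49.2, 87, 74.1, 83.7 and 77.8 FPKM in hda1-/- and 52.1, 49.9, 46.1, 43.2, 47.6, 60.7, 83.8 and 75.6 FPKM in wild type and was called only at Glu-30, by 1.81-fold (1.69 to 1.94). USV1, for a zinc finger activator, was at 24.1, 72.8, 92.1, 85.3, 35.3, 16, 146 and 130.2 FPKM in hda1-/- and 10.2, 26.7, 37.8, 42.2, 15, 8.09, 145 and 214 FPKM in wild type. Its higher level in hda1-/- held at 6 successive stages, from 2.25-fold (1.86 to 2.73) in raffinose to 1.87-fold (1.52 to 2.31) at Glu-120, and then stood at 1.00-fold (0.942 to 1.07) and 0.609-fold (0.571 to 0.65) in the second pulse. SDP1, for a phosphatase that acts on the cell wall MAP kinase Slt2, was at 19, 26, 29.3, 12, 24, 14.5, 48 and 41.7 FPKM in hda1-/- and 7.84, 7.22, 7.35, 6.54, 12, 9.21, 42.4 and 45.9 FPKM in wild type. It was called at the first 5 stages, with 3.62-fold (2.81 to 4.70) at Gal-30. XBP1, for a stress-induced repressor, was listed at 17.7, 0, 25.9, 0, 0, 0, 0 and 58.4 FPKM in hda1-/- and 0, 0, 12.3, 16.6, 0, 11, 44.8 and 0 FPKM in wild type. These values jump between 0 and as much as 58.4 FPKM within hda1-/-, so no fold is given.

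During the first pulse, most hda1-/- levels already exceeded those that wild type had at the next stage. At Gal-15 the hda1-/- library was above the wild-type library of Gal-30 in 27 of the 28 genes, all but GPX2, a relation that 72.0% of all ORFs also showed. At Gal-30 it was above the wild-type library of Gal-120 in 26 of the 28, all but GRE1 and GPX2, against 60.2% of ORFs. ALD3, for example, was at 432 FPKM in hda1-/- at Gal-15 and 315 FPKM in wild type at Gal-30. Summed over the 28 genes, the share of all ORF FPKM was 0.759, 1.59, 2.21 and 3.99% in hda1-/- at Ra-0, Gal-15, Gal-30 and Gal-120, and 0.635, 0.899, 1.13 and 1.7% in wild type.

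By Gal-120 most of these genes were higher than on raffinose in both genotypes. Over raffinose, 17, 18 and 19 of the 31 genes were higher in hda1-/- at Gal-15, Gal-30 and Gal-120 (background 4.39%, 6.22% and 7.45%), and 10, 16 and 19 in wild type (2.38%, 3.15% and 4.11%). Their median log2 changes were 1.40, 1.77 and 2.17 in hda1-/- and 0.44, 1.31 and 1.62 in wild type. Those of all ORFs were −0.002, −0.07 and −0.33 in hda1-/- and −0.07, −0.14 and −0.15 in wild type. In hda1-/- XBP1 was lower at Gal-15 and Gal-120 (1.53% and 15.3% of ORFs), and no gene was lower at Gal-30 (3.33%) or in wild type at any of the 3 stages (0.833%, 1.29% and 1.75%). CTT1 and ALD3 changed most among the 28, by 61.4-fold and 44.6-fold in hda1-/- and 25.8-fold and 25.5-fold in wild type at Gal-120. SPI1 changed no more in hda1-/- than in wild type, 6.83-fold and 7.62-fold, so its higher level in galactose was already there in raffinose. USV1 also changed no more in hda1-/- at Gal-120, with 3.43-fold against 3.87-fold in wild type. At Gal-15 and Gal-30 its change was larger in hda1-/-, 2.94-fold and 3.70-fold against 2.48-fold and 3.47-fold, with overlapping intervals.

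After the move to glucose, 22 of the 28 steadily measured genes in hda1-/- stood below their Gal-120 level at Glu-30. In wild type 16 stood below and 12 above, and 20 stayed within 2-fold. The change lay further down in hda1-/- than in wild type for most genes. How many of all ORFs showed these relations was not counted, and the median change of all ORFs was upward in both genotypes. At Glu-120 most genes stood below their Glu-30 level in both genotypes. From Gal-120 to Glu-30, 15 of the 31 genes were lower and 1 higher in hda1-/- (background 5.70% and 28.6%), and 7 were lower and 3 higher in wild type (4.03% and 10.1%). The members' medians were −0.87 and −0.25 log2, while those of all ORFs were 0.56 and 0.34. Among the 28, CTT1 was lowered furthest, to 80.1 FPKM in hda1-/- (0.0495-fold) and 54.7 FPKM in wild type (0.0945-fold). The Glu-30 level of HSP12 was 0.85-fold its Gal-120 level in hda1-/- and 2.13-fold in wild type, where it was one of the 3 genes called higher. MSC1, TFS1, GPX2, GRE3 and YGP1 also stood below their Gal-120 level in hda1-/- and above it in wild type, within 2-fold. GRE2 was at 155 FPKM in hda1-/- and 173 FPKM in wild type at Glu-30, its highest level in both genotypes, and UBI4 also peaked there, at 626 and 585 FPKM. From Glu-30 to Glu-120, 18 genes were lower in hda1-/- and 20 in wild type (6.12% and 6.39%), with 0 and 1 higher (1.84% and 1.96%). HSP12 was now at 0.0736-fold of its Glu-30 level in hda1-/- and 0.0969-fold in wild type.

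**Figure D4:**
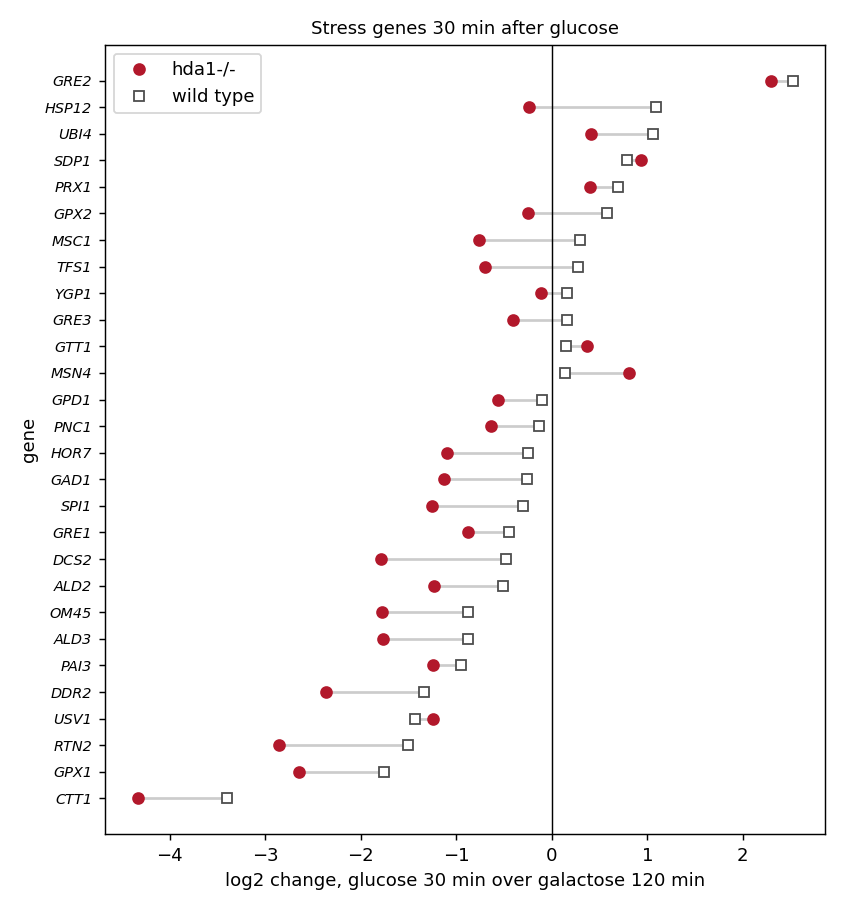
Log2 change from galactose 120 min to glucose 30 min (horizontal axis) of the 28 steadily measured stress genes, ordered by the change in wild type, with filled circles for hda1-/- and open squares for wild type. Most circles lie left of their squares, with CTT1 lowest in both at −4.34 and −3.40, and GRE2 highest at 2.30 and 2.52.

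Levels in the second galactose pulse passed those of the first for most genes, and the change over Glu-120 had the larger median in wild type. Over Glu-120, 24 of the 31 genes were higher and 1 lower in hda1-/- at Gal-15-1 (background 12.8% and 17.5%), and 25 and 1 in wild type (14.4% and 11.4%). The median changes were 2.42 and 2.75 log2, and those of all ORFs −0.05 and 0.07. At Gal-30-1, 26 were higher and 1 lower in hda1-/- (16.8% and 21.6%), and 24 and 2 in wild type (20.4% and 19.4%). The medians were 2.97 and 3.63 log2, and those of all ORFs −0.004 and 0.11. GPX2 was the lower gene in each of these comparisons, at 0.2-fold in hda1-/- and 0.279-fold in wild type at Gal-30-1, and XBP1 was the other in wild type. The same 30 min of galactose gave different levels in the 2 pulses: Gal-30-1 over Gal-30, 17 genes were higher and 1 lower in hda1-/- (6.31% and 14.1%) and 24 higher and 2 lower in wild type (17.5% and 14.5%). The medians of these changes were 1.14 and 2.25 log2, and those of all ORFs −0.02 and 0.26, also larger in wild type. RTN2 was 3.56-fold its first-pulse level in hda1-/- and 9.95-fold in wild type, and CTT1 1.43-fold and 5.84-fold. At Gal-30-1 the 28 genes took 6.57% of ORF FPKM in hda1-/- and 6.85% in wild type, and HSP12 alone made up 34.3% and 32.4% of their sum. These comparisons share the libraries of Glu-120 or Gal-30 and are not independent of each other.

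**Figure D5:**
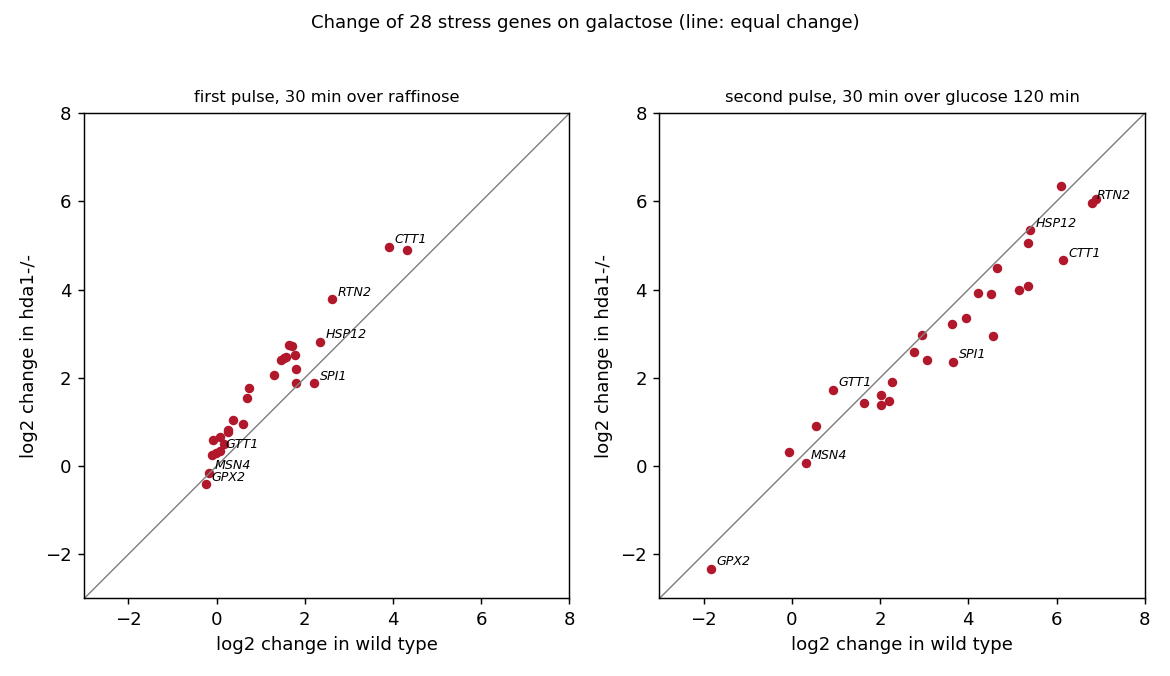
Log2 change of the 28 steadily measured stress genes in hda1-/- (vertical axis) against wild type (horizontal axis), at 30 min of the first pulse over raffinose (left) and at 30 min of the second pulse over glucose 120 min (right), with 1 point per gene and a line of equal change. Points lie mostly above the line on the left, as RTN2 does with 3.78 and 2.62, and mostly on or below it on the right, as CTT1 does with 4.67 and 6.15.

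Of 28 genes that act upstream of the response (PKA, Ras, TOR and MAP kinase components, phosphatases, and activators), TPK3 and PDE1 were listed near 0 in some libraries. Over the other 26, the genes higher in hda1-/- numbered 0, 2, 3, 3, 1, 0, 0 and 0 in stage order, where 4.90%, 7.84%, 9.35%, 8.06%, 5.95%, 5.02%, 3.52% and 3.32% of all ORFs were higher. The genes lower numbered 0, 0, 0, 2, 0, 0, 1 and 0, where 9.79% of ORFs were lower at Gal-120 and 5.92% at Gal-15-1. YAK1, for a kinase that opposes PKA, was at 67.6, 184, 224, 225, 98.7, 83.9, 264 and 231 FPKM in hda1-/- and 44.4, 70.8, 83.6, 99.6, 53.6, 69, 295 and 249.8 FPKM in wild type. It was higher from Gal-15 (2.58-fold, 2.46 to 2.71) to Glu-30 (1.82-fold, 1.72 to 1.93), and it overlaps the ORF IRC9 on the same strand. TPK2, for a catalytic subunit of PKA, was higher at all 3 stages of the first pulse, by 1.78-fold, 1.74-fold and 1.84-fold. GIS1, for an activator of genes of the post-diauxic phase, was higher at Gal-30 (1.83-fold) and at Gal-120 (1.7-fold, 1.62 to 1.79), on the threshold. Lower in hda1-/- were SKN7, for an oxidative stress activator (0.486-fold, 0.424 to 0.558 at Gal-120), PSR2, for a phosphatase (0.58-fold, 0.507 to 0.663 at Gal-120), and RAS1, for a small GTPase (0.522-fold, 0.447 to 0.609 at Gal-15-1). MSN2, for the partner of Msn4, was called at no stage, with 31.9 FPKM in hda1-/- and 30.1 FPKM in wild type at Gal-30.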

How the data were processed

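Per the labels and the study's methods, RNA was extracted with hot phenol, and directional mRNA libraries were sequenced on a HiSeq2500. The authors aligned reads with HISAT2 2.0.4 and quantified genes with StringTie 1.3.0 against Ensembl release 86 of R64-1-1; FastQC 0.11.5, SAMtools and bedtools 2.26.0 are also in the submitters' processing notes. The deposited values are coverage, FPKM and TPM per gene, with no counts, and no strand option stands in the file headers, so opposite-strand overlaps are uncertain.

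Deposited FPKM was used, with a pseudocount of 1 and a minimum mean of 1 FPKM over the 16 libraries. Coverage times length, with 202 bases as 1 fragment (reads of 101 bases), gave the counts behind the 95% exact binomial intervals, and 3 fragments was the floor, 0.217 to 0.320 FPKM for a 1 kb gene. With 1 library per genotype and stage no test was made. The 1.7-fold rule is the study's. Members and gene lists were chosen with earlier results of these data known. Values in every library are given for members called at all 3 stages of the first pulse, or called lower or in both directions; GPX2, MSN4 and YAK1, and the genes drawn in the plots of selected genes, were added after their values were seen. Start and stop codons lay at the file coordinates in 6679 of 6685 ORFs of the genome used. Python 3.11.15, NumPy 2.4.6, pandas 2.3.3 and SciPy 1.17.1 were used. The ChIP data of the study were not analysed here.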

Additional observations from a re-analysis of the deposited data

Results flagged for a closer look

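For 4 of the 28 genes, and 3.74% of 5881 tested ORFs, the ratio of hda1-/- to wild type lay above 1 at every stage of the first galactose pulse and below 1 at every stage of the second, beyond the counting interval each time. The mean log2 ratio of the second pulse minus that of the first was −1.75 for CTT1, −1.28 for ALD2, −1.63 for ALD3 and −0.50 for GPD1. The difference between pulses was not tested, since each stage has 1 library per genotype. With each stage centred on the median of all ORFs, the log2 ratios at Gal-15-1 were −0.01 for CTT1, −0.10 for ALD2, 0.03 for ALD3 and −0.13 for GPD1. The sign of ALD3 there thus depends on the scaling. No counting interval was computed for the centred ratios, so whether the others stay below 1 beyond it was not tested. GPD1 passed 1.7-fold at no stage, and CTT1, ALD2 and ALD3 passed it in the first pulse only. The second-pulse mean was below the first in 27 of the 28 genes, all but GTT1, and in 68.7% of tested ORFs.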

How the results depend on the processing

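No paired analysis was possible because the groups compared, 1 genotype at 1 stage, hold 1 library each, and the stages are different conditions that were not used as replicates. Across pseudocounts of 0.1 and 5, TPM, centring on the median of all ORFs, a stricter fold, the counting interval as a further condition and no minimum, and, chosen after seeing the data, scaling to the ORF sum and leaving out SIP18, XBP1 and MOH1, no called gene changed direction. Centring turned the sign of the members' median at Gal-30-1 (−0.05 to 0.11), and of the upstream medians at Gal-120 (−0.03 to 0.12), Gal-15-1 (−0.01 to 0.15) and Gal-30-1 (−0.06 to 0.094). It also turned the sign of several ratios near 1 that were not called, among them ALD3 and GRE2 at Gal-15-1 and HSP12 and MSC1 at Gal-30-1. The members higher in hda1-/- ranged from 13 to 17 at Gal-15, 16 to 21 at Gal-30 and 16 to 21 at Gal-120. Of 79 calls of members between genotypes over the 8 stages, a 2-fold rule lost 19, and each other alternative that kept all 31 genes lost at most 5 and gained at most 2. Of 314 calls between stages, a 3-fold rule lost 69, and each other lost at most 11 and gained at most 14. A 2-fold rule left 3 higher at Glu-30, 1 at Glu-120 and 1 at Gal-30-1, and a pseudocount of 5 left 2 at Glu-120. Without the 3 genes near 0, the members lower in hda1-/- became 0 at Gal-120, Glu-120, Gal-15-1 and Gal-30-1, and 1 was higher at Gal-30-1. Centring gave 2 higher at Gal-15-1.

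At 3-fold, the members higher at Gal-15 over Ra-0 were 11 in hda1-/- and 4 in wild type. Those lower at Glu-30 over Gal-120 were 8 in hda1-/- and 3 in wild type, with 1 higher in wild type. Those lower at Glu-120 over Glu-30 were 10 and 13, and 0 were lower in wild type at Gal-15-1 over Glu-120. For Gal-30-1 over Gal-30, 8 were higher in hda1-/-. For Glu-30 over Gal-120, TPM gave 2 higher in hda1-/-, and centring gave a median of −1.43 in hda1-/- and 1 higher in wild type. Without the genes near 0, 0 were lower in hda1-/- at Gal-15 and Gal-120 over Ra-0, 0 were higher in wild type at Glu-120 over Glu-30, and 1 was lower in wild type at Gal-30-1 over Glu-120 and over Gal-30. Among upstream genes, centring gave 1 higher at Gal-15 and 1 lower at Gal-120, and a pseudocount of 5 gave 1 lower at Gal-120. For each of these the cause was not tested, apart from the stricter folds and the omitted genes. Depth limits GRE1, PAI3 and SDP1 most, whose lowest levels in wild type were 3.76, 9.74 and 6.54 FPKM. Spread between cultures is unknown.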
